A study of Saccharomyces cerevisiae with 12 samples.

Results

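The interior of chromosome IX of budding yeast, the chromosome without its outermost 30 kb on each side, was followed in an eco1 mutant and in wild type after cells were released from arrest in G1. It was taken as the 1000-bp stretches of the deposited table, called rows here, whose centre lies over 30 kb from either chromosome end. Of 380 such rows, 4 were dropped because a ratio was exactly 0, and 376 remained of 12165 rows in the whole table. They run from 30001 to 410000 on a chromosome of 439888 bp (sacCer3), with 322 rows left of the centromere and 54 right of it. The centromere was placed at 355.8 kb, midway between the last gene of the left arm and the first gene of the right arm.

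Genomic DNA was sequenced from 4 groups whose ratios are used here, and from the 0-min cells of both strains. The eco1 groups, at 20 and at 40 min after release, are strain JG2087, which carries the point allele eco1-W216G. The wild-type groups, at 20 and at 40 min, are strain w303a. All cultures were grown in YPD, arrested in G1 for 2 h by α-factor, a mating pheromone, and released by washing with protease. Each strain gave 2 libraries at each of the 3 times, for a total of 12. The labels name no further allele or marker of either strain. They do not state whether replicates came from different cultures, so a p-value here reflects only how far these libraries vary, which may be technical. Row counts cannot show a point allele, so the labels for eco1 were not checked in that way.

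Cohesin is the ring complex that holds sister chromatids together, and Eco1 modifies its Smc3 subunit by acetylation while DNA is being copied. Replication starts at origins that fire early or late in S phase, so in a culture leaving G1 the copy number along a chromosome forms hills around early origins and valleys between them. Regions around centromeres are known to be copied early in budding yeast. A whole chromosome that some cells carry in an extra copy stands higher along its full length instead. In bulk DNA, more copies in each cell and more cells with an extra copy cannot be told apart.

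The values are log2 ratios of a 20- or 40-min library to the 0-min library of the same strain and replicate, 8 columns in all. The median over 11630 nuclear rows was subtracted from each column, so that 0 is the level of the typical nuclear row and a value of a row, window or chromosome is its level over that median. The scale of the ratios implies 5293237 to 10362815 mapped reads in the 12 libraries. The whole reads recovered from the ratios sum to more over all rows in every library, at 5517838 to 10791565. Why these totals differ was not tested. The median row of the chromosome IX interior held 483.5 to 1057 reads. Counting error alone then gives an SD of 0.067 to 0.088 (log2) for a row, 0.021 to 0.028 for a window of 10 kb and 0.0035 to 0.0046 for the mean of the whole interior. Intervals from read counts cover counting error only, since reads without molecular identifiers are not independent molecules. One column stands apart. The eco1 40-min replicate 1 has a flat profile, the flattest of the 8 columns, on chromosome IX and also on the 12 chromosomes other than I, III, V and IX. Over 38 windows of 10 kb of chromosome IX it correlates at r = -0.37 with the other eco1 40-min column. The pair of eco1 20-min columns correlates at r = 0.70. Where leaving it out changes a call or the sign of a window named at 40 min, the value without it is given. When a column is left out, the column that remains of its group has no spread of its own and is taken to vary like the other groups.

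Chromosome IX stood higher in eco1 than in wild type along its interior at both times. At 20 min the mean level of its rows was 0.184 and 0.183 in the eco1 columns, against 0.0115 and 0.00344 in the wild-type columns. At 40 min it was 0.194 and 0.187 in eco1, against 0.0218 and 0.0227 in wild type. The groups did not overlap at either time, and the gap between them was more than the gap between replicates. As a group, eco1 averaged 0.184 ± 0.00091 (SD, n = 2) at 20 min and wild type 0.00745 ± 0.0057 (SD, n = 2), which gives a difference of 0.176 (SE 0.0074, 95% interval 0.160 to 0.193). At 40 min eco1 averaged 0.191 ± 0.0048 and wild type 0.0222 ± 0.00066 (SD, n = 2 each), and the difference was 0.168 (SE 0.0074, 95% interval 0.152 to 0.185). Without the flat eco1 40-min replicate 1 the 40-min difference was 0.165. The differences correspond to 1.13-fold and 1.12-fold, relative to the nuclear median, in the change from each strain's own 0-min library. Both passed in limma, a linear model that pools the spread over features, fitted to the interiors of the 16 chromosomes with Benjamini-Hochberg correction (adjusted p = 9.99e-10 at 20 min and 1.62e-09 at 40 min). Of the 16 interiors, 25% were called higher in eco1 and 43.8% lower at 20 min, and 25% higher and 31.2% lower at 40 min.

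**Figure D1:**
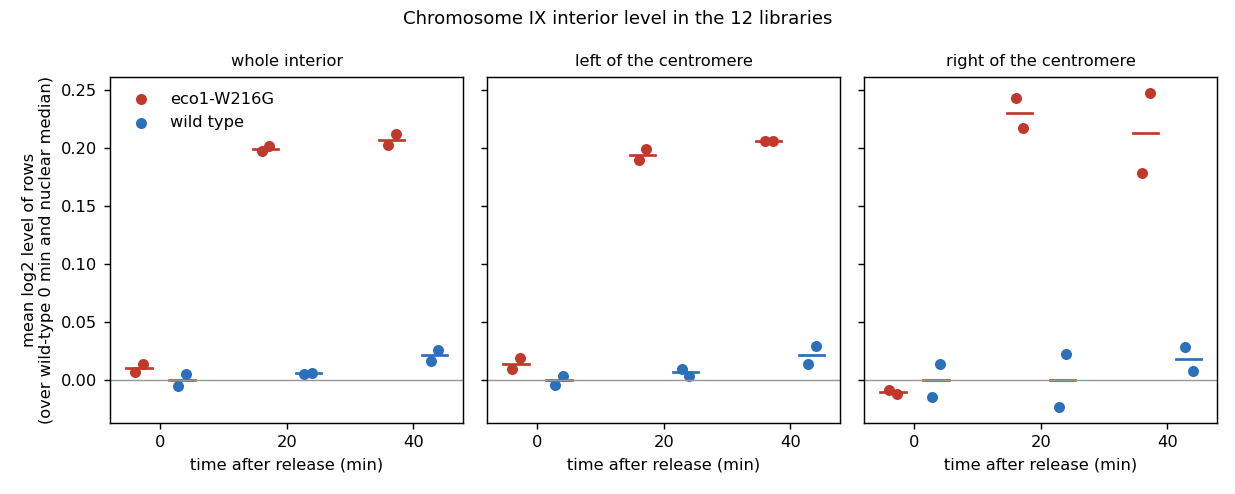
Mean level of the chromosome IX interior in each of the 12 libraries, from recovered reads over the wild-type 0-min libraries (log2, relative to the nuclear median), with eco1-W216G on the left and wild type on the right. The eco1 libraries at 20 and 40 min lie between 0.198 and 0.213, and the wild-type and 0-min libraries between -0.0052 and 0.0266.

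The higher level in eco1 was spread over most rows of the interior. In eco1, 90.2% and 91.5% of the 376 rows lay above the nuclear median at 20 min and 98.7% and 88.6% at 40 min. In wild type the shares were 52.9% and 48.4% at 20 min and 55.6% and 52.4% at 40 min. The mean of the eco1 columns exceeded that of the wild-type columns in 322 of 376 rows at 20 min (85.6%) and in 333 at 40 min (88.6%). In the interiors of the 12 chromosomes other than I, III, V and IX, the same held for 45.9% of 9562 rows at 20 min and 47.6% at 40 min. Chromosomes I, III and V were left out because earlier results of these data had shown them raised, a choice that widens the gap to chromosome IX. Left of the centromere it held in 272 of 322 rows at 20 min and 280 at 40 min, and right of it in 50 and 53 of 54.

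In neither strain did the change of the level from 20 to 40 min pass the test. The change from 20 to 40 min was 0.00687 in eco1 (95% interval -0.0095 to 0.0232, limma adjusted p = 0.892) and 0.0148 in wild type (95% interval -0.0016 to 0.0311, limma adjusted p = 0.287). The 40-min column was the higher in 4 of 4 pairs of the same strain and replicate, which share a 0-min library. None of the 16 interiors was called for either change (0%). Of the 38 windows of 10 kb of the interior, 0 passed for the change in eco1 (limma adjusted p under 0.05), and 2 had an unadjusted p under 0.05, where 2.31% of all windows did. In wild type 0 passed as well, and 3 had an unadjusted p under 0.05, where 11.3% of all windows did. The strains' changes of the interior level differed by -0.0079 (SE 0.0105, 95% interval -0.031 to 0.015, limma adjusted p = 0.939). These intervals leave room for shifts of up to about 0.03, and a p above the threshold does not show that the levels were equal.

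The 0-min libraries, which a ratio hides, were read from the whole reads behind the ratios. Levels of all 12 libraries were taken relative to the average of both wild-type 0-min libraries. At 0 min the interior stood at 0.0073 and 0.0145 in eco1, against -0.0052 and 0.0052 in wild type. At 20 min it stood at 0.198 and 0.202 in eco1, against 0.0053 and 0.0068 in wild type. At 40 min it stood at 0.203 and 0.213 in eco1, against 0.0165 and 0.0266 in wild type. The high eco1 libraries were thus those collected after release, while both 0-min eco1 libraries lay within 0.01 of the nearest wild-type one.

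A limma fit to these 12 libraries gave an eco1 minus wild-type difference of 0.011 at 0 min (SE 0.0056, 95% interval -0.0013 to 0.0232, adjusted p = 0.274), where 18.8% of the 16 interiors were called. Those called at 0 min were chromosomes I (0.12, limma adjusted p = 2.00e-05), III (0.053, limma adjusted p = 5.70e-06) and V (0.021, limma adjusted p = 0.00813). Within eco1 the 20-min libraries exceeded the 0-min ones by 0.189 or 1.14-fold (limma adjusted p = 3.57e-12), and the 40-min libraries by 0.197 or 1.15-fold (limma adjusted p = 2.22e-12). In both of these contrasts 68.8% of the interiors were called, in either direction. Within wild type the change to 20 min was 0.0060 (limma adjusted p = 0.606, 12.5% of interiors called) and the change to 40 min was 0.0215 (limma adjusted p = 0.00778, 50% of interiors called). In the same fit eco1 exceeded wild type by 0.194 at 20 min (limma adjusted p = 2.65e-12, 87.5% of interiors called in either direction) and by 0.186 at 40 min (limma adjusted p = 3.33e-12, 68.8% called). The contrasts within a strain share 0-min libraries, and this fit was added with the values in view.

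The same result stands in plain shares of reads. In eco1 the interior took 3.30% and 3.31% of nuclear reads at 0 min, 3.74% and 3.75% at 20 min, and 3.74% and 3.78% at 40 min. In wild type it took 3.27% and 3.29% at 0 min, 3.29% and 3.28% at 20 min, and 3.32% and 3.32% at 40 min. The exact 95% binomial interval of the eco1 20-min replicate 1 ran from 3.72% to 3.75% and that of the eco1 0-min replicate 1 from 3.29% to 3.31%.

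Among the 16 chromosome interiors, the eco1 minus wild-type difference of IX ranked 2 at both times, after chromosome I. Chromosome I differed by 0.54 at 20 min and 0.54 at 40 min, III by 0.10 and 0.11, and V by 0.11 and 0.073. The difference of IX was below that of I by 0.366 at 20 min (SE 0.018) and by 0.368 at 40 min (limma on the chromosome differences, adjusted p = 7.77e-07 and 8.21e-07). It exceeded that of III by 0.0765 at 20 min (SE 0.0039, limma adjusted p = 9.27e-07) and by 0.0583 at 40 min (limma adjusted p = 4.20e-06). It exceeded that of V by 0.0665 at 20 min (SE 0.0054, limma adjusted p = 1.35e-05) and by 0.0957 at 40 min (limma adjusted p = 1.71e-06). Chromosome X, the neighbour in number, differed by -0.016 at 20 min and -0.014 at 40 min, and VI, a shorter one, by -0.048 and -0.051. These gaps are between ratios to each strain's own 0-min libraries, in which eco1 already stood above wild type on I, III and V. In recovered reads eco1 exceeded wild type on IX by 0.194 at 20 min and 0.186 at 40 min. The same reads gave 0.672 and 0.667 on I, 0.159 and 0.169 on III, and 0.137 and 0.100 on V. There IX lay nearer to III than in the ratios. The raised chromosomes were chosen for comparison because earlier results had shown them raised.

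**Figure D2:**
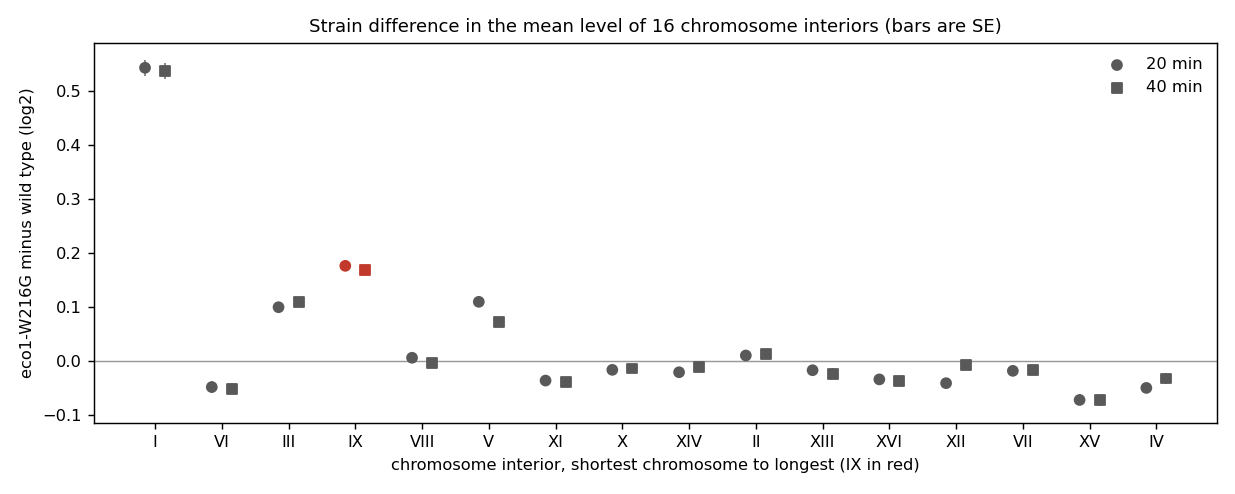
Eco1 minus wild-type difference of the mean level of each of the 16 chromosome interiors (log2) at 20 and at 40 min. Bars are the SE from limma. Chromosome IX, at 0.176 and 0.168, lies between chromosome I and chromosomes III and V.

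Along the chromosome the interior was divided into 38 windows of 10 kb, 33 on the left arm and 5 on the right, and limma was fitted to 1213 windows of the nuclear genome. At 20 min all 38 windows of the interior had a positive eco1 minus wild-type difference, with a median of 0.173 and a range of 0.035 to 0.397. In 22 of the 38 the difference passed the threshold (limma adjusted p under 0.05) and was higher in eco1, and in 0 it was lower, where 4.95% of all windows were called higher and 1.73% lower. The 22 were 17 of 33 windows on the left arm and 5 of 5 on the right. In 37 of the 38 windows both eco1 columns lay above both wild-type columns, against 26.5% of all windows and 18% of those on the 12 other chromosomes. At 40 min all 38 differences were again positive, with a median of 0.166 and a range of 0.038 to 0.297. Of these, 13 passed (limma adjusted p under 0.05), 11 on the left arm and 2 on the right, where 2.8% of all windows were called higher and 0.577% lower. Both eco1 columns lay above both wild-type columns in 35 of the 38 windows at 40 min, against 21.8% of all windows and 13.6% of those on the 12 other chromosomes. The counts changed when 1 column was left out, also of the other time, since all columns share 1 estimate of the spread. The share of all windows called in those fits is not given here. These counts thus do not show whether chromosome IX or the whole genome lost or gained calls. With eco1 20-min replicate 1 left out the 20-min count was 1, with eco1 20-min replicate 2 left out it was 3, with wild-type 20-min replicate 1 left out it was 8, and with wild-type 20-min replicate 2 left out it was 3. Leaving out eco1 40-min replicate 2 gave a 40-min count of 6, wild-type 40-min replicate 1 gave 7, wild-type 40-min replicate 2 gave 1, either eco1 20-min column gave 5 and either wild-type 20-min column gave 8. Without the flat eco1 40-min replicate 1 they were 28 and 19.

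**Figure D3:**
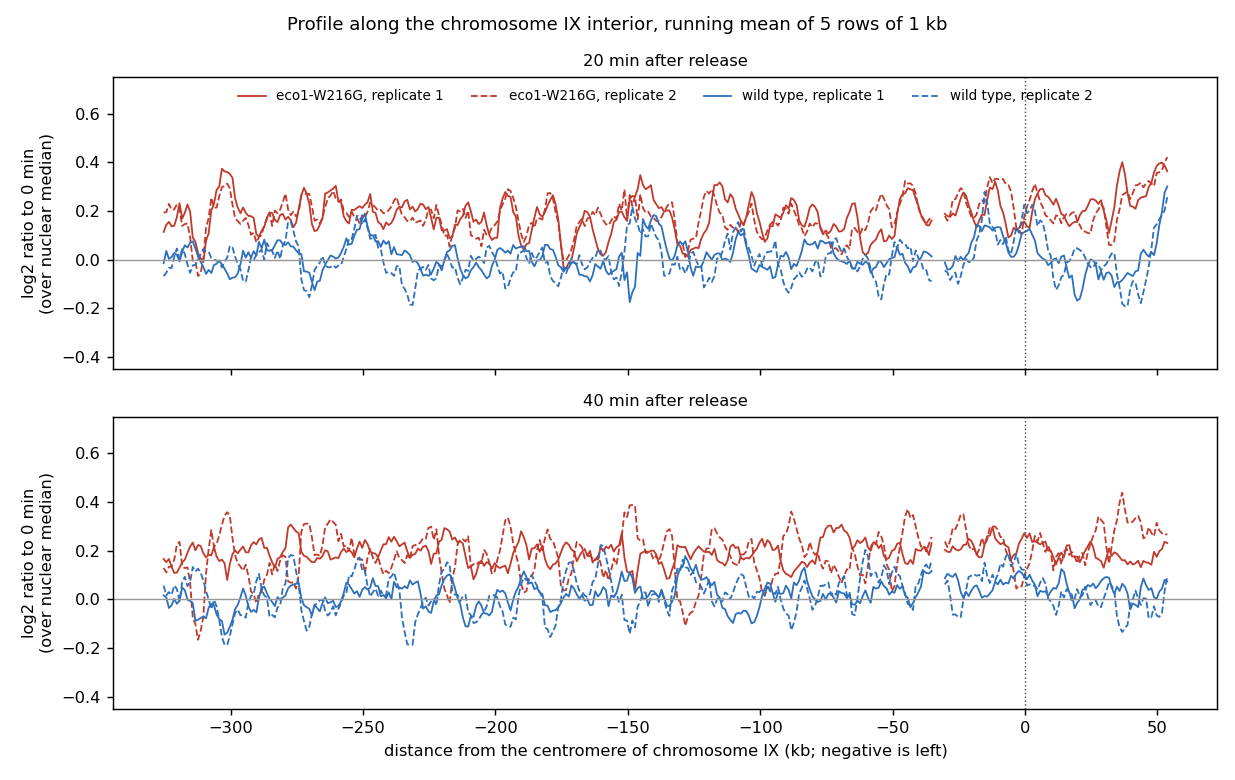
Level over the nuclear median (log2 ratio, running mean of 5 rows of 1 kb) along the chromosome IX interior against the distance from the centromere in kb. The eco1 and wild-type columns of 20 and 40 min are drawn singly. The eco1 columns run above the wild-type columns over most of the length at both times. The flattest is eco1 40-min replicate 1, which runs from 0.042 to 0.31.

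The 5 windows with the largest difference at 20 min were those centred nearest ICR1, IMP21, VHS2, CCT2 and YVH1. ICR1, which names a window of the right arm (390001 to 400000), is a long noncoding RNA transcribed upstream of the flocculin gene FLO11. The window stood at 0.30 and 0.28 in the eco1 20-min columns, against -0.066 and -0.14 in the wild-type ones, a difference of 0.40 (SE 0.069, limma adjusted p = 0.0147). In the 40-min columns it stood at 0.15 and 0.39 in eco1, against 0.020 and -0.049 in wild type. The groups did not overlap at either time, but the 40-min difference of 0.28 did not pass (limma adjusted p = 0.0687), and it was 0.40 without the flat eco1 40-min replicate 1 (limma adjusted p = 0.00226) and 0.17 without replicate 2 (limma adjusted p = 0.154). At 20 min the call was lost without eco1 replicate 1 (0.39), eco1 replicate 2 (0.41) or wild-type replicate 2 (0.36).

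IMP21, a transcriptional activator gene, names the window with the largest difference at 40 min (50001 to 60000, left arm). It stood at 0.31 and 0.23 in the eco1 20-min columns, against -0.046 and -0.010 in wild type, and the difference was 0.30 (SE 0.040, limma adjusted p = 0.00365). In the 40-min columns it stood at 0.18 and 0.24 in eco1, against -0.065 and -0.10 in wild type, and the difference was 0.30 (limma adjusted p = 0.00419). Here wild type lay below the nuclear median in all 4 columns, and eco1 above it in all 4. The 20-min difference without eco1 replicate 1 was 0.26 and did not pass (limma adjusted p = 0.0517).

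VHS2, which has a role in septin dynamics at the bud neck, names the window from 90001 to 100000. It stood at 0.26 and 0.25 in the eco1 20-min columns, against 0.013 and -0.027 in wild type, and the difference was 0.26 (SE 0.039, limma adjusted p = 0.00807). Later, at 40 min, it stood at 0.20 and 0.29 in eco1, against -0.012 and -0.041 in wild type, and the difference was 0.27 (limma adjusted p = 0.00654). Both passed and the groups were well apart, yet the 20-min call was lost without either eco1 20-min column (0.26 each) or wild-type replicate 2 (0.24), and the 40-min call without wild-type 40-min replicate 2 (0.25).

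The window next to it, named by CCT2 (80001 to 90000), which encodes a subunit of the cytosolic chaperonin, differed by 0.26 at 20 min (SE 0.033, limma adjusted p = 0.00276) and by 0.22 at 40 min (limma adjusted p = 0.00711). Its 20-min call stood in all 12 alternatives, and its 40-min call in all but the one without wild-type 40-min replicate 2 (0.21, limma adjusted p = 0.0859). YVH1, a phosphatase gene with a part in ribosome assembly, names the last window of the interior (400001 to 410000). It stood at 0.35 and 0.35 in the eco1 20-min columns, against 0.10 and 0.076 in wild type, and the difference was 0.26 (SE 0.048, limma adjusted p = 0.0201). The call was lost when any 1 of these 4 columns was left out, with values of 0.24 to 0.27. Later, at 40 min, it stood at 0.18 and 0.28 in eco1, against 0.041 and -0.067 in wild type, and the difference was 0.24 (limma adjusted p = 0.0328), which did not pass without eco1 40-min replicate 2 (0.19), wild-type 40-min replicate 2 (0.19) or any 20-min column (0.24). KGD1, for a subunit of mitochondrial α-ketoglutarate dehydrogenase, completes the 5 largest at 40 min, at 0.24 (SE 0.055, limma adjusted p = 0.0553). The KGD1 difference was 0.25 without eco1 40-min replicate 1 and ran from 0.17 to 0.31 with any 1 column left out. Its wild-type 40-min columns lay apart, at 0.034 and -0.11.

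The smallest difference of the 38 at 20 min was that of the window that holds the centromere (350001 to 360000, named by the uncharacterised gene YIL001W). It stood at 0.13 and 0.19 in the eco1 20-min columns, against 0.076 and 0.17 in wild type, and the difference was 0.035 (SE 0.052, limma adjusted p = 0.719). At 40 min it stood at 0.23 and 0.096 in eco1, against 0.10 and 0.12 in wild type, and the difference was 0.049 (limma adjusted p = 0.619). The strains overlapped at both times, and wild type lay above the nuclear median in all 4 columns. The 20-min difference was -0.011 without wild-type replicate 1, and the 40-min difference -0.017 without eco1 40-min replicate 1. With the chromosome centred on its own interior median the window lay below the rest of the interior in its difference, by -0.15 at 20 min and -0.13 at 40 min, which did not pass (limma adjusted p = 0.296 and 0.366). The window to the left, named by YIA6, a mitochondrial NAD+ carrier gene, differed by 0.18 at 20 min (limma adjusted p = 0.0347) and 0.19 at 40 min (limma adjusted p = 0.0430). The window to the right, named by the splicing factor gene IST3, differed by 0.23 (limma adjusted p = 0.00819) and 0.17 (limma adjusted p = 0.0365). The YIA6 call at 20 min was lost without any 1 of the columns of 20 min (0.13 to 0.22) or either wild-type 40-min column (0.18), and that of IST3 without eco1 20-min replicate 1 (0.19) or either wild-type 20-min column (0.22 and 0.23). At 40 min both calls were lost without any 1 of the 7 columns other than eco1 40-min replicate 1, at 0.16 to 0.22 for YIA6 and 0.16 to 0.18 for IST3.

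The other 4 of the 5 smallest at 20 min were named by PRM2, a pheromone-regulated gene needed for nuclear fusion in mating (0.051), ASG1, a zinc cluster regulator (0.080), SNP1, for a U1 snRNP protein (0.082), and BNR1, a formin gene (0.082). None passed, with limma adjusted p from 0.189 to 0.638. With 1 column left out the difference ran from 0.013 to 0.089 for PRM2 and from 0.034 to 0.13 for SNP1. At 40 min the smallest were SPO22, a meiotic gene (0.038, limma adjusted p = 0.634, and -0.0085 without eco1 40-min replicate 1), the centromere window, ICE2, for an endoplasmic reticulum membrane protein (0.098, limma adjusted p = 0.310, and 0.040 to 0.16 with 1 column left out), IRR1 (0.10, limma adjusted p = 0.215) and NIT1, a nitrilase gene (0.12, limma adjusted p = 0.0925). IRR1 encodes Scc3, itself a cohesin subunit, and its window (300001 to 310000) differed by 0.18 at 20 min (limma adjusted p = 0.0348). That call was lost when any 1 of the 4 columns of 20 min was left out (0.14 to 0.23) and without either wild-type 40-min column (0.18).

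**Figure D4:**
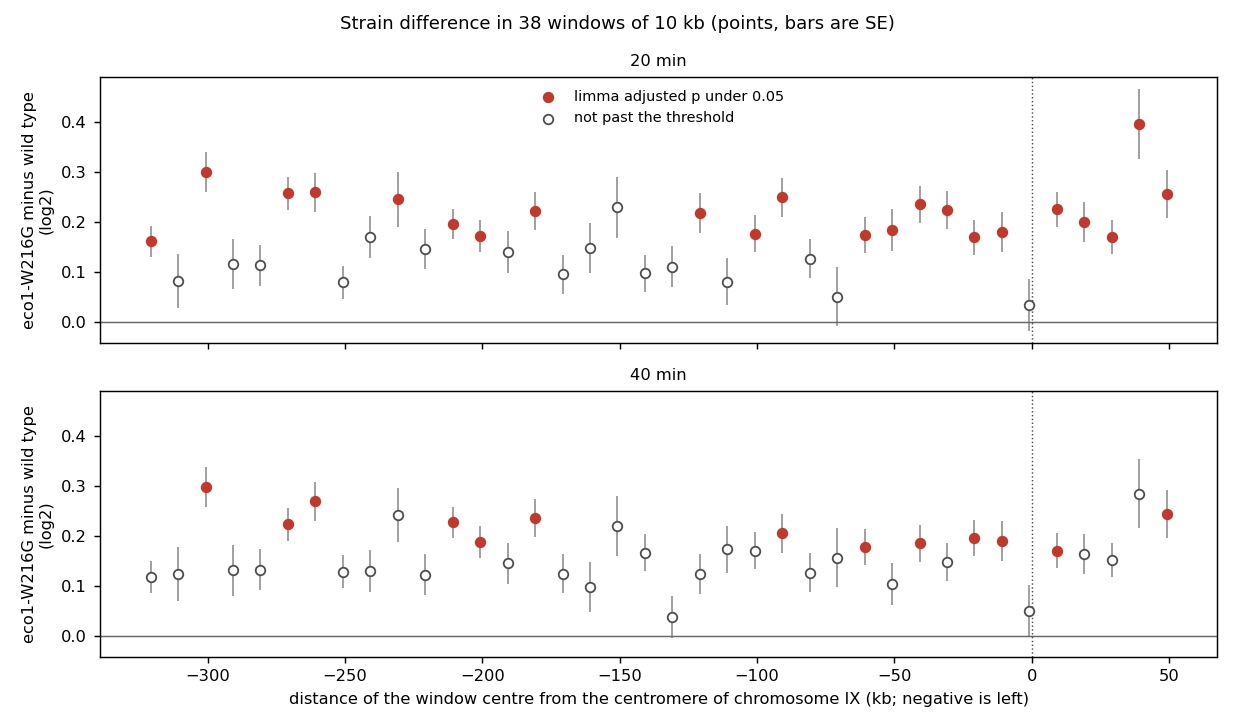
Eco1 minus wild-type difference (log2) of the 38 interior 10-kb windows of chromosome IX against the distance from the centromere in kb, at 20 and at 40 min. Bars are the SE, and windows past the threshold are marked. The windows at the chromosome ends are not drawn. All 38 interior windows lie above 0 at both times, and the centromere window lies near the bottom at 0.035 and 0.049.

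Whether eco1 differs in shape as well as level was asked by centring each chromosome on the median of its own interior rows. Then 0 of the 38 windows passed at 20 min and 0 at 40 min (limma adjusted p under 0.05), where 0.33% and 0.165% of all windows were called. Without eco1 40-min replicate 1, 1 window passed at 20 min and 2 at 40 min, and without its replicate 2, 1 passed at 20 min. At an unadjusted p under 0.05, limma gave 6 windows at 20 min and 4 at 40 min, where 14.8% and 13% of all windows did so. In simulated windows with the spread of these data, limma called 13 of 50 with a change of 0.1 and 39 of 50 with 0.2. Counts of 0 thus do not show that the strains had the same shape. The spread of the difference among the 38 windows was an SD of 0.074 at 20 min and 0.059 at 40 min, against 0.075 and 0.068 among the windows of the 12 other chromosomes. The value for the other chromosomes pools 12 chromosomes whose own levels differ and is not matched to the interior of 1 chromosome. It cannot show whether chromosome IX varied between windows as much as a chromosome that was not raised.

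The height of the profile, taken as the SD over the 38 windows of a column, was 0.066 and 0.063 in the eco1 20-min columns, against 0.057 and 0.064 in the wild-type ones. The groups overlapped (difference 0.0043, two-sided exact permutation p = 0.667, where 2 against 2 cannot go below 0.333). In the 40-min columns it was 0.029 and 0.073 in eco1, against 0.041 and 0.061 in wild type (difference -0.00031, exact permutation p = 1). The widest gap was within eco1 at 40 min, where replicate 1 was flatter than any other column of either strain on chromosome IX. That column was also the flattest over the 12 other chromosomes, with an SD of 0.045 against 0.052 to 0.076 in the other columns. It was thus the flattest in both places, and by more on chromosome IX. There its 0.029 compares with 0.041 to 0.073 in the other columns.

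Profiles of a strain resembled each other more at 20 min than those of different strains did. Over the 38 windows, r was 0.70 for the pair of eco1 20-min columns and 0.63 for the wild-type pair, and between 0.083 and 0.20 for the 4 pairings across strains. At 40 min r was -0.37 for the eco1 pair and 0.33 for the wild-type pair. The eco1 40-min replicate 2 correlated at 0.76 with eco1 20-min replicate 1, with which it shares no library, and at 0.70 with replicate 2, with which it shares the 0-min library. With the wild-type columns it correlated at -0.51 to 0.033. The flat eco1 40-min replicate 1 correlated at -0.32 and -0.16 with the eco1 20-min columns, and at 0.23 to 0.47 with the wild-type columns. At 40 min the resemblance within eco1 thus did not hold for both columns. These are descriptions over windows of the same chromosome, which share reads, depth and base composition, and neighbouring windows are not independent.

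In the mean wild-type 20-min profile, smoothed over 5 rows, 9 maxima and 9 minima of a prominence of at least 0.1 lay in the interior. The search returned such places in simulated noise as well, with more noise in a row than the counting error of the wild-type 20-min columns. That does not give the rate for this profile, and no single one of them is shown to be a feature of the wild-type profile. These places were chosen on the wild-type values, so their differences from eco1 are given without a test. The maxima all lay on the left arm, nearest PAN6, TAO3, MOB1, THS1, RGI2, PRM2, ATG45, FAA3 and YIL001W. Their mean level was 0.17 in eco1 and 0.12 in wild type at 20 min, and 0.19 in eco1 and 0.068 in wild type at 40 min. The minima, 8 on the left arm and 1 on the right, lay nearest AXL2, KGD1, SGA1, SEC6, SYG1, EMA17, MNT3, CMI7 and FLO11. Their mean level was 0.21 in eco1 and -0.074 in wild type at 20 min, and 0.22 in eco1 and 0.0041 in wild type at 40 min. At 20 min eco1 was thus nearer to wild type at the wild-type maxima than at the minima, a direction that the choice of places on wild-type values favours.

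The highest wild-type maximum of the 9 lay at FAA3, a fatty acyl-CoA synthetase gene on the left arm close to the centromere. It stood at 0.18 and 0.24 in the eco1 20-min columns, against 0.14 and 0.28 in wild type, so the strains overlapped. By 40 min it stood at 0.22 and 0.22 in eco1, against 0.013 and 0.15 in wild type. The deepest minimum lay within FLO11, the gene of a cell-surface flocculin (389572 to 393675), in the same window as ICR1. It stood at 0.40 and 0.27 in the eco1 20-min columns, against -0.084 and -0.18 in wild type. By 40 min it stood at 0.16 and 0.44 in eco1, against 0.064 and -0.13 in wild type. The FLO11 place, chosen as a minimum of wild type at 20 min, lay above the mean of the interior in both eco1 columns of that time. Single columns gave 21 and 19 maxima in eco1 at 20 min, against 13 and 15 in wild type, and 12 and 23 in eco1 at 40 min, against 11 and 19 in wild type.

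On the left arm the mean level was 0.174 and 0.176 in the eco1 20-min columns, against 0.0147 and 0.00222 in wild type. On the right arm it was 0.246 and 0.225 in eco1, against -0.0077 and 0.011 in wild type. Both arms of eco1 stood above those of wild type, and at 20 min the right arm was the higher in both eco1 columns. At 40 min the left arm stood at 0.195 and 0.177 in eco1, against 0.0182 and 0.0274 in wild type. The right arm stood at 0.186 and 0.248 in eco1, against 0.043 and -0.0051 in wild type, so the arms of eco1 differed in opposite directions in its replicates. The strain difference of left minus right was -0.067 at 20 min (SE 0.024, 95% interval -0.12 to -0.015, limma adjusted p = 0.116 over 16 chromosomes), where 0% of chromosomes were called. At 40 min it was -0.035 (95% interval -0.087 to 0.017, limma adjusted p = 0.379), where 6.25% were called. The 20-min difference passed, at the same value, when any 1 of the 4 columns of 40 min was left out (limma adjusted p = 0.00231 to 0.00517). The 40-min value was -0.075 without eco1 40-min replicate 1 (limma adjusted p = 0.0035), 0.0057 without its replicate 2, and -0.064 without wild-type replicate 1 (limma adjusted p = 0.0354).

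In blocks of 50 kb the difference at 20 min ranged from 0.14 (180 to 230 kb, and 330 kb to the centromere) to 0.23 (the right arm), and at 40 min from 0.13 (180 to 230 kb) to 0.20 (80 to 130 kb, and the right arm). At 20 min the right arm thus lay above each of the 7 blocks of the left arm, of which the highest was 80 to 130 kb at 0.20. All blocks were positive at both times.

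At the left border the first window inside, NIT1 (30001 to 40000), differed by 0.16 at 20 min and 0.12 at 40 min, and the first outside, CSS1 (20001 to 30000), by 0.19 and 0.17. At the right border the last window inside, YVH1, differed by 0.26 and 0.24, and the first outside, DAL3, a gene of allantoin breakdown (410001 to 420000), by 0.052 and 0.10. Neither CSS1 nor DAL3 passed at either time (limma adjusted p from 0.0566 to 0.539), although CSS1 passed at 20 min without eco1 20-min replicate 2 (0.27) or either eco1 40-min column (0.19), and was 0.11 without eco1 20-min replicate 1. The DAL3 difference at 40 min was 0.058 without eco1 40-min replicate 1. In the DAL3 window the wild-type 20-min columns were themselves high. It stood at 0.33 and 0.32 in eco1 at 20 min, against 0.33 and 0.23 in wild type, and at 0.27 and 0.18 in eco1 at 40 min, against 0.093 and 0.16 in wild type. Over the whole 30 kb beyond the right border, eco1 stood at 0.23 and 0.25 at 20 min, against 0.11 and 0.079 in wild type. Beyond the left border only 12 rows were kept, and eco1 stood there at 0.27 and 0.14 at 20 min, against 0.018 and 0.015 in wild type.

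The strain difference around the listed genes had a lower median than over all rows of the interior. The 10 tRNA genes, with 2.5 kb on each side, 1 of them (YNCI0008C) in a dropped row itself, covered 53 rows with a mean level of 0.17 in eco1 and 0.0052 in wild type at 20 min, and 0.19 in eco1 and 0.044 in wild type at 40 min. Their median difference was 0.17 at 20 min and 0.15 at 40 min, positive in 47 and 48 of the 53 rows. The 5 ribosomal protein genes (RPL40A, RPL16A, RPS24B, RPL34B and RPL2B) covered 33 rows with a median difference of 0.14 and 0.13, positive in 28 rows at each time. Over all 376 rows the median difference was 0.19 at both times. In wild type at 40 min both lists averaged 0.044, above the 0.0222 of the whole interior, and this was not tested. Around RPS24B, a gene of the small ribosomal subunit, the 40-min columns stood at 0.22 and -0.026 in eco1, against 0.12 and 0.097 in wild type, and the difference was -0.015 with the eco1 replicates far apart. Around RPL2B, of the large subunit, they stood at 0.21 and 0.23 in eco1, against 0.074 and 0.10 in wild type. Replication origins, Ty elements and LTRs were not analysed here.

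The 4 dropped rows lie together on the left arm at 321001 to 325000 and held 0 reads in each of the 12 libraries. They contain SNL1, for a co-chaperone of the nuclear envelope and endoplasmic reticulum (321454 to 321933), BAR1 (322342 to 324105) and the tRNA gene YNCI0008C (324303 to 324374). BAR1 encodes the secreted protease that degrades α-factor, and cells without it respond to far lower doses of the pheromone, which was used here to hold cells in G1. A count of 0 allows at most 3 reads over the 4 rows, which is up to 0.155% of the median depth of the interior in the shallowest library. The next row to the right held 68 to 161 reads, or 14.1% to 18.7% of the median row, in the 12 libraries. The 5 rows to the left held 80.8% to 92.7% of the median row, and the 5 beyond that partial row 104% to 115%. The gap was present in eco1 and in wild type at 0, 20 and 40 min. The labels do not mention BAR1, and whether the rows were absent from the strains or from what was counted was not tested.

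**Figure D5:**
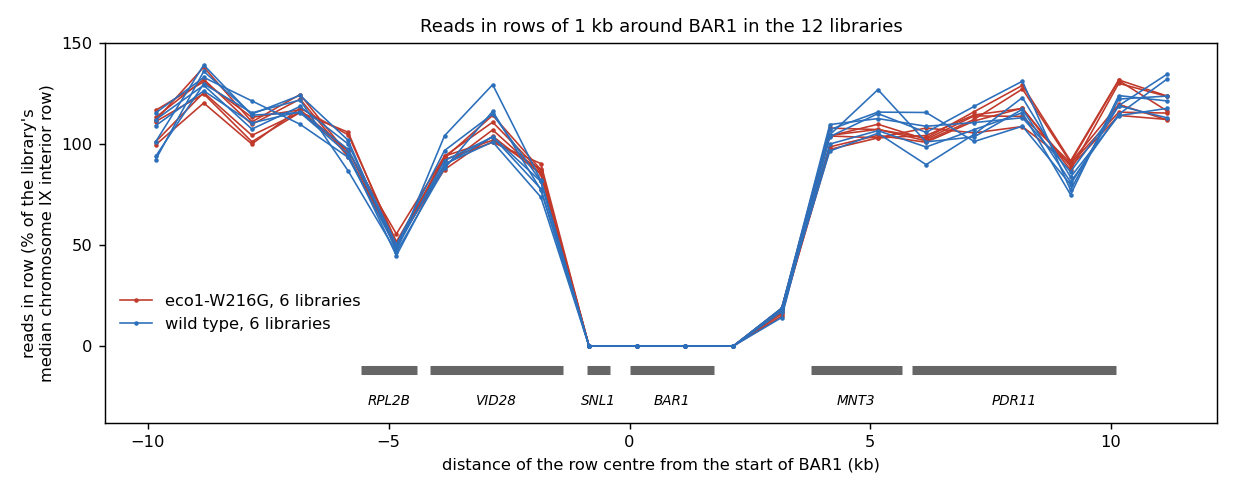
Reads per row as a percentage of the library's median chromosome IX interior row, against the distance of the row centre from the start of BAR1 in kb, in 6 eco1-W216G and 6 wild-type libraries, with genes drawn below as bars. The 4 rows over SNL1 and BAR1 are at 0 in all 12 libraries, and the row to their right is at 14.1% to 18.7%.

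A second gap in depth lies at 206001 to 209000, within YIL082W-A, a Gag-Pol gene of the retrotransposon Ty3 (205635 to 210132). Its 3 rows held 17.0 to 28.7 reads each on average, or 2.56% to 5.86% of the median row. These rows stayed among the 376 members. Leaving out the 4 members with under 100 reads in any library gave a difference of 0.174 at 20 min and 0.168 at 40 min.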

How the data were processed

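Genomic DNA of both strains at 0, 20 and 40 min was sequenced from Nextera XT libraries made with 8 ng of DNA, per the labels' protocols. Per the submitters' processing notes, CASAVA 1.8.2 and Bowtie were used with the build sacCer3, and no roles or parameters are given. The authors deposited 1 table of 12165 rows with 8 ratio columns, in log2 units as deposited. Log base, the pseudocount of 1 RPM and the 0-min library of the same strain and replicate as denominator are not named in the headers and were settled from the values. The 8 smooth columns of the deposited table, treated as a score, were not used.

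Rows with a ratio of exactly 0 in any column (449) were dropped. Whole reads were recovered by solving each row for the read numbers that give both ratios of a strain and replicate. This solved 12164 of 12165 rows, of which 1 to 6 per strain and replicate had a further solution, and the step was tested on simulated data. Genes came from RefSeq for the assembly R64, whose lengths match. The ratios were analysed with limma 3.58.1 in R 4.3.3, with 4 strain-by-time groups and no covariate (4 residual and 6.7 prior degrees of freedom for chromosomes, 4 and 4.0 for windows), and p-values were adjusted by Benjamini-Hochberg over all 16 chromosomes or 1213 windows at a threshold of 0.05. The limma step was tested on simulated data. In simulated data the search for maxima returned the planted peaks and further ones that noise alone had made.

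Named windows were the 5 with the largest and the 5 with the smallest strain difference at each time, named by the gene nearest the window centre, with the centromere and border windows and their neighbours. Maxima and minima came from the wild-type 20-min profile. Members, lists and comparison chromosomes were chosen with earlier results of these data known. The labels do not say that a replicate number marks a shared culture. Deviations of same-numbered columns of the strains correlated at 0.095 at 20 min and -0.15 at 40 min, so the fits have no block. Within a strain, both later columns with the same number have 1 denominator, and their deviations correlated at 0.18 in eco1 and 0.52 in wild type, so a strain-and-replicate block was an alternative for the change over time. Alternatives were other centring, windows, filters, thresholds and contrast measures, each column left out, and blocks.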

Additional observations from a re-analysis of the deposited data

Results flagged for a closer look

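The change in the level of the chromosome IX interior over the 0-min library differed between strains at both times. From 0 to 20 min the eco1 mean was 0.184 and the wild-type mean 0.00745, giving a difference of 0.176 (limma adjusted p = 9.99e-10), with both eco1 columns above both wild-type columns. From 0 to 40 min the eco1 mean was 0.191 and the wild-type mean 0.0222, giving a difference of 0.168 (limma adjusted p = 1.62e-09), again with both eco1 columns above both wild-type columns. No group had enough samples to test a single sample as far from the others.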

How the results depend on the processing

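The interior level difference kept its direction and its call in all 20 alternatives at each time, at 0.17 to 0.194 at 20 min (limma adjusted p up to 0.00564, with equal SD) and 0.162 to 0.186 at 40 min (up to 0.00728, with equal SD). Leaving out 1 column gave 0.172 to 0.180 and 0.165 to 0.172. The changes over time and their strain difference passed in none of 19 alternatives each, among them the block on strain and replicate (limma adjusted p = 0.979 in eco1, 0.519 in wild type and 0.956 for their difference). With the replicate block the level differed by 0.176 at 20 min (limma adjusted p = 2.56e-07) and 0.168 at 40 min (3.50e-07), the windows called were 20 and 10, and the left-minus-right arm difference at 20 min passed (-0.067, limma adjusted p = 0.0130). It changed no other call of these results, and among named windows it ended those of IRR1 at 20 min and of YVH1 and IST3 at 40 min and added KGD1 at 40 min. An alternative added with the data in view, with the numbers of eco1 crossed, called 24 windows at 20 min and 19 at 40 min.

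Of 22 windows called at 20 min, 5-kb windows gave 17 of 76, an adjusted p under 0.01 gave 7, and leaving out 1 column gave 1 to 28. At 40 min the 10-kb windows gave 13 of 38, 5-kb windows gave 11 of 76, and 20-kb windows gave 15 out of a smaller number. These are unlike shares, so the count depended on window size. For no alternative is the share called over all windows given here. An adjusted p under 0.01 gave 4, no rows beyond 4 MAD gave 20, and the count also changed when 1 column was left out. Own-chromosome centring called 0 to 1 windows at 20 min and 0 to 2 at 40 min when 1 column was left out. Profile contrast turned to -0.0051 at 20 min with 20-kb windows and to 0.0055 at 40 min with 5-kb windows, and exact permutation p was 0.667 to 1 throughout. The arm difference with 1 column left out ran from -0.083 to -0.052 at 20 min and from -0.075 to 0.0057 at 40 min. For 38 named-window differences, 379 alternatives kept direction and call, 62 lost the call, 11 gained it and 4 turned sign, these 4 all with 1 column left out. Over those the difference ran from -0.0085 to 0.085 for SPO22 at 40 min, from -0.011 to 0.080 for YIL001W at 20 min, from -0.017 to 0.12 for YIL001W at 40 min and from -0.00057 to 0.10 for DAL3 at 20 min. The cause of these shifts was not tested, beyond the fewer columns in each. Counting error of a 10-kb window is an SD of 0.021 to 0.028, and replicate columns of a window had an SD of 0.035 to 0.061 across the 4 groups.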
